A study of Homo sapiens with 4 samples.

Results

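The 7 mature miRNAs described here, hsa-miR-374a-5p, hsa-miR-374a-3p, hsa-miR-374b-5p, hsa-miR-374b-3p, hsa-miR-421, hsa-miR-545-3p and hsa-miR-545-5p, are cut from 4 hairpins that lie in introns of FTX, a long noncoding RNA gene. They were chosen by name from a table of 2656 mature miRNAs, and 5 of the 7 had enough reads to be tested. The small RNA was that of HEK293T, an established human line of embryonic kidney origin with a stably expressed SV40 large T antigen. All libraries came from monoclonal lines with a landing pad, a site engineered into the genome to receive a transgene. The pad held the CAG promoter, a strong synthetic promoter that joins chicken beta-actin sequence to a cytomegalovirus enhancer, in 2 libraries. It held the PGK promoter, from the phosphoglycerate kinase gene, in the other 2. The series asked which miRNAs differ between these lines. The number of clones is not stated, so promoter and clone cannot be told apart. The labels also do not say whether replicates were separate cultures. The p-values set group differences against the spread between libraries of a group, and do not reach beyond these 4 samples.

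A miRNA of this kind is transcribed as part of a longer RNA, released from the intron as a hairpin by Drosha and trimmed by Dicer to a duplex. One strand of the duplex, from the 5′ side (5p) or the 3′ side (3p) of the hairpin, is usually kept by an Argonaute protein and pairs with target mRNAs through its seed, bases 2 to 8. FTX belongs to the X-inactivation centre and promotes Xist expression in mouse. Hairpins of the miR-374 and miR-421 families are found in other mammals too. miR-374a has been described as a repressor of Wnt pathway antagonists and miR-421 as a repressor of the ATM kinase.

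The mature sequences from RefSeq (GRCh38.p14) are shown because seed and similarity decide which of these counts can be kept apart. Capitals mark the seed, 6 of the 7 members had an entry, and miR-374a-5p is named only.
miR-374b-5p: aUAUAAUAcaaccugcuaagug
miR-374a-3p: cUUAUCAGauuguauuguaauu
miR-374b-3p: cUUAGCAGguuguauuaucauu
miR-421: aUCAACAGacauuaauugggcgc
miR-545-3p: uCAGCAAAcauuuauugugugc
miR-545-5p: uCAGUAAAuguuuauuagauga
The opposite strand at MIR374B is annotated as a further hairpin, MIR374C, whose products overlap in sequence with those of miR-374b.
miR-374c-5p: aUAAUACAaccugcuaagugcu
miR-374c-3p: cACUUAGCagguuguauuauau

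The 2 members of the miR-374 3p pair were identical at 18 of 22 positions. Counted from 1 at the 5′ end and with the base of miR-374a-3p first, they differed by U5G, A9G, G17A and A19C. U5G lies in the seed, so the 2 arms belong to different seed families, UUAUCAG and UUAGCAG. The 5p arms of the same hairpins share the seed UAUAAUA: the deposited count of that family matched the sum of miR-374a-5p and miR-374b-5p within 1 read in every library. miR-374b-5p had a run of 20 bases in common with miR-374c-5p, and miR-374b-3p one of 18 bases with miR-374c-3p. The sources used here do not give how the authors assigned reads that fit more than 1 of these entries. Most members are poor in G and C. miR-374a-3p and miR-545-5p had 22.7% G and C, a share reached or undercut by only 8 of 686 tested miRNAs with a sequence. Both arms of miR-374b had 31.8%, miR-545-3p 36.4% and miR-421 43.5%, against a median of 50% for those 686.

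GENCODE release 29 (GRCh38) places FTX on the minus strand of chromosome X, 73946555 to 74293574, a span of 347 kb. MIR374A (74287286 to 74287357) and MIR545 (74287104 to 74287209) are 76 bases apart and start 6.22 kb into the gene. MIR374B (74218547 to 74218618) and MIR421 (74218377 to 74218461) are 85 bases apart, and the distance between the pairs is 68.5 kb. The first pair lies within 13 of 18 annotated FTX transcripts and the second within 7, in each case between exons. MIR374C (74218549 to 74218618, plus strand) lies within the span of MIR374B. The deposited tables hold no coordinates, so positions were looked up by hairpin name, and the build used by the authors may differ.

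**Figure D1:**
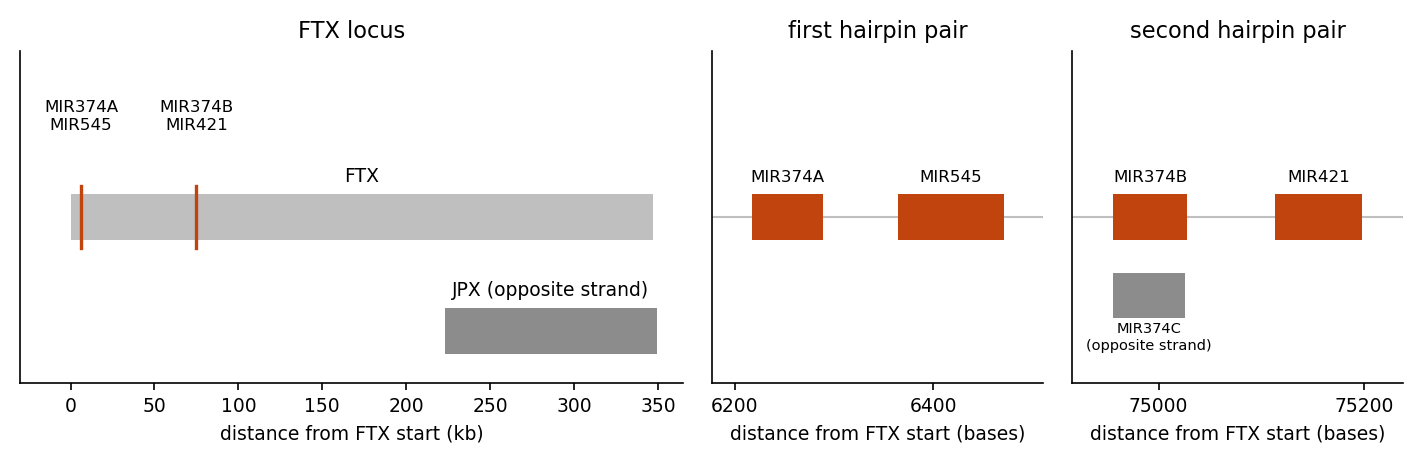
Position of the 4 hairpins (orange) along FTX (light grey), as distance from the start of FTX in its own direction of transcription, with close views of both pairs in bases. Hairpins of a pair are neighbours, 76 and 85 bases apart, and JPX and MIR374C (dark grey) lie on the opposite strand.

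Total counts assigned to miRNAs were 13780279 and 2845945 in CAG replicates 1 and 2, and 7927615 and 7331437 in PGK replicates 1 and 2. Levels are given as CPM, counts rescaled with TMM factors so that libraries of unequal depth can be compared, on which a single read was worth 0.0777 to 0.324 CPM, most in the shallow CAG replicate 2. The 6 miRNAs fixed as typical of HEK293 cells, such as miR-10a-5p and miR-92a-3p, stood at 756 CPM or more in every library. The 10 markers of blood, liver, muscle, neuron and pluripotent cells summed to 3.57 and 2.59 CPM in CAG libraries and 4.25 and 5.72 CPM in PGK libraries, and miR-223-3p and miR-302a-3p had no read. In such bulk samples, fewer cells with a miRNA and less of it per cell cannot be told apart.

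The 5 tested FTX miRNAs were moderately abundant, and none of them passed the test between CAG and PGK cells (edgeR quasi-likelihood test, adjusted p under 0.05). Over all 773 tested miRNAs the same test called 14.2%, with 8.15% higher and 6.08% lower in CAG cells. miR-374b-3p came nearest, 1.54-fold higher in CAG cells, and the other 4 had fold changes between 0.921 and 1.24. In 4 of the 5 both CAG libraries lay above both PGK libraries, as they did in 29.8% of all tested miRNAs. DESeq2 called none of the 5, while over all miRNAs it called 53 higher and 43 lower in CAG cells. Of the 5, limma-voom called miR-374b-3p alone, and over all miRNAs 63 higher and 50 lower. The median log2 fold change of the tested members was 0.28, against −0.0042 over all tested miRNAs. These members share a host and in part a hairpin, so they are not independent readings.

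miR-374b-5p was the most abundant product of FTX. It stood at 1261 and 1420 CPM in CAG replicates 1 and 2, against 1296 and 1616 CPM in PGK replicates 1 and 2. The groups overlapped, with means of 1340 ± 113 CPM for CAG and 1456 ± 226 CPM for PGK (SD, n = 2 each). Its log2 fold change, CAG minus PGK, was −0.12 (SE 0.18; edgeR adjusted p = 0.722).

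miR-374a-5p, the near-identical partner of miR-374b-5p, stood at 688.4 and 717.9 CPM in CAG replicates 1 and 2, against 539.1 and 687.8 CPM in PGK replicates 1 and 2. The lowest CAG and the highest PGK library were thus almost equal. The log2 fold change was 0.20 (SE 0.19; edgeR adjusted p = 0.539). Without PGK replicate 1 it was 0.01, and without PGK replicate 2 it was 0.37; neither was called. As a family, UAUAAUA stood at 1945 and 2089 CPM in CAG and 1856 and 2334 CPM in PGK replicates 1 and 2. The groups overlapped here too, with a log2 fold change of −0.05 (SE 0.17; edgeR adjusted p = 0.884), which was slightly above 0 in 3 of 14 alternative settings. Of all 642 tested families 10.4% were called, and none of the 4 tested families that hold a member was.

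miR-421, the neighbour of miR-374b, stood at 360 and 342 CPM in CAG replicates 1 and 2, against 275 and 293 CPM in PGK replicates 1 and 2. Both CAG libraries were above both PGK libraries, by means of 351 ± 12.4 and 284 ± 12.7 CPM (SD, n = 2 each). The log2 fold change of 0.31 (SE 0.18) did not pass the test (edgeR adjusted p = 0.289), nor in any of the 14 alternative fits with a test.

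miR-374a-3p stood at 353 and 287 CPM in CAG replicates 1 and 2, against 261 and 267 CPM in PGK replicates 1 and 2. The CAG libraries were the higher ones and spread more widely. The log2 fold change was 0.28 (SE 0.19; edgeR adjusted p = 0.363). It was 0.13 without CAG replicate 1 and 0.42 without CAG replicate 2, and not called in either case.

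miR-374b-3p, the rarer arm of its hairpin, was the member with the largest difference. It stood at 180 and 189 CPM in CAG replicates 1 and 2, against 110.5 and 130 CPM in PGK replicates 1 and 2. The groups did not overlap, with means of 185 ± 6.45 CPM for CAG and 120.2 ± 13.7 CPM for PGK (SD, n = 2 each). The log2 fold change was 0.62 (SE 0.19) with an edgeR adjusted p = 0.0506, which placed it at rank 111 of 773 by p, directly after the 110 called miRNAs. The adjusted p was 0.0459 with limma-voom, 0.0475 without CAG replicate 1 and 0.0466 without CAG replicate 2 (edgeR), 0.309 without PGK replicate 1 and 0.212 without PGK replicate 2. DESeq2 gave an adjusted p of 0.0592, and edgeR with the replicate block gave 0.0825. The side of the threshold on which miR-374b-3p fell thus changed with the method and with the library left out. Its seed family UUAGCAG, which holds the same reads, was not called by edgeR (adjusted p = 0.0762) or limma-voom (adjusted p = 0.0744).

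**Figure D2:**
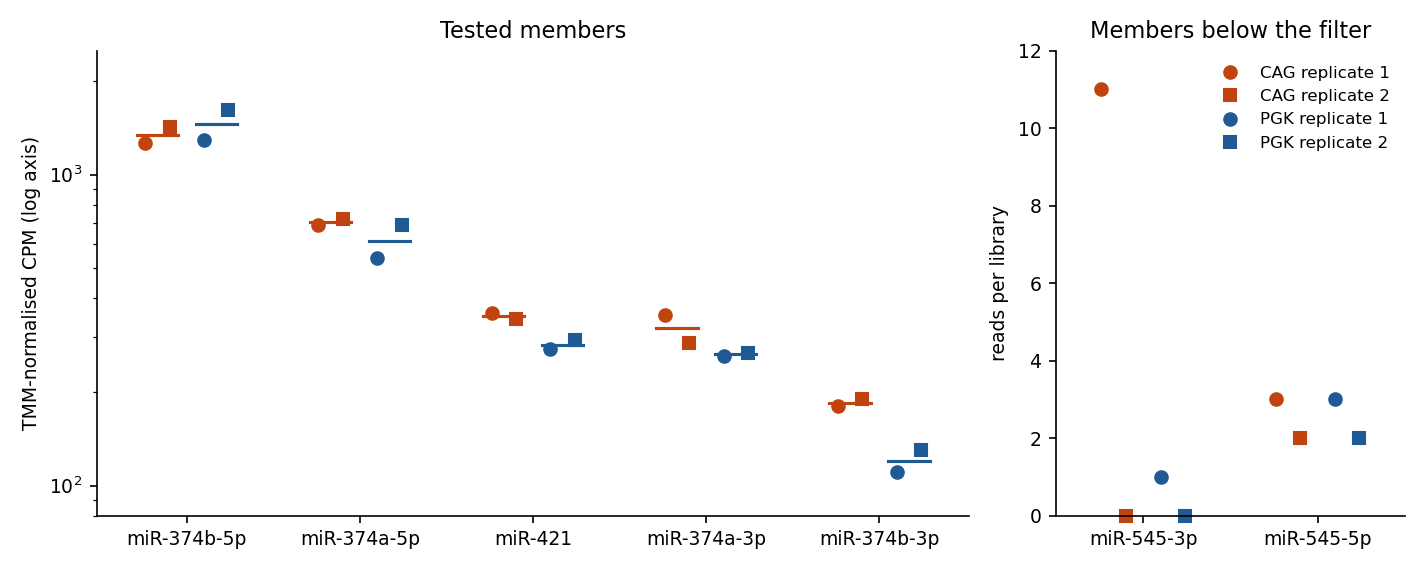
Left, TMM-normalised CPM (log axis) of the 5 tested members in each library, with CAG in orange, PGK in blue and bars for group means of 2 libraries. Right, reads per library of the miR-545 arms. The groups lie furthest apart for miR-374b-3p, and 11 of the 12 miR-545-3p reads are in CAG replicate 1.

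The miR-545 hairpin, although only 76 bases from MIR374A, gave almost no reads. miR-545-5p had 3 and 2 reads in CAG replicates 1 and 2 and also 3 and 2 reads in PGK replicates 1 and 2. Its pooled ratio, CAG over PGK, was 0.950 (95% exact interval 0.219 to 4.13). miR-545-3p had 11 and 0 reads in CAG replicates 1 and 2, and 1 and 0 reads in PGK replicates 1 and 2. That gives a pooled ratio of 10.4 (95% exact interval 1.52 to 449.8), but it rests on CAG replicate 1, and without that library 0 and 1 reads remained. Intervals of this kind cover counting error only, not the spread between libraries. They also treat reads as independent, which reads amplified by PCR without molecular identifiers are not. miR-545 made up 0.104% (95% exact interval 0.0570 to 0.175) and 0.0645% (0.00781 to 0.233) of the summed miR-374a and miR-545 reads in CAG replicates 1 and 2. In PGK replicates 1 and 2 the share was 0.0625% (0.0170 to 0.160) and 0.0292% (0.00354 to 0.105). All 4 intervals overlap, and a difference was not detectable at this depth.

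In the order of mean level the members were miR-374b-5p, miR-374a-5p, miR-421, miR-374a-3p, miR-374b-3p, miR-545-5p and miR-545-3p. The first 5 ranked 66, 96, 131, 141 and 188 among 773 tested miRNAs. miR-374b-5p was 1.83 to 2.40 times the level of miR-374a-5p within each library, and miR-374a-5p was 1.91 to 2.35 times that of miR-421. The ranges of miR-421 and miR-374a-3p over the 4 libraries overlapped, so their order is not resolved, nor is that of the miR-545 arms. The step from miR-374b-3p to miR-545-5p was at least 292-fold in every library, with 2 or 3 miR-545-5p reads behind it in each. Levels of different miRNAs also carry the ligation preference of the library kit, and such steps are between counts, not measured molecule numbers. Summed over all 7 members, FTX products amounted to 2843 and 2957 CPM in CAG replicates 1 and 2 and 2482 and 2993 CPM in PGK replicates 1 and 2, with overlap between the groups.

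**Figure D3:**
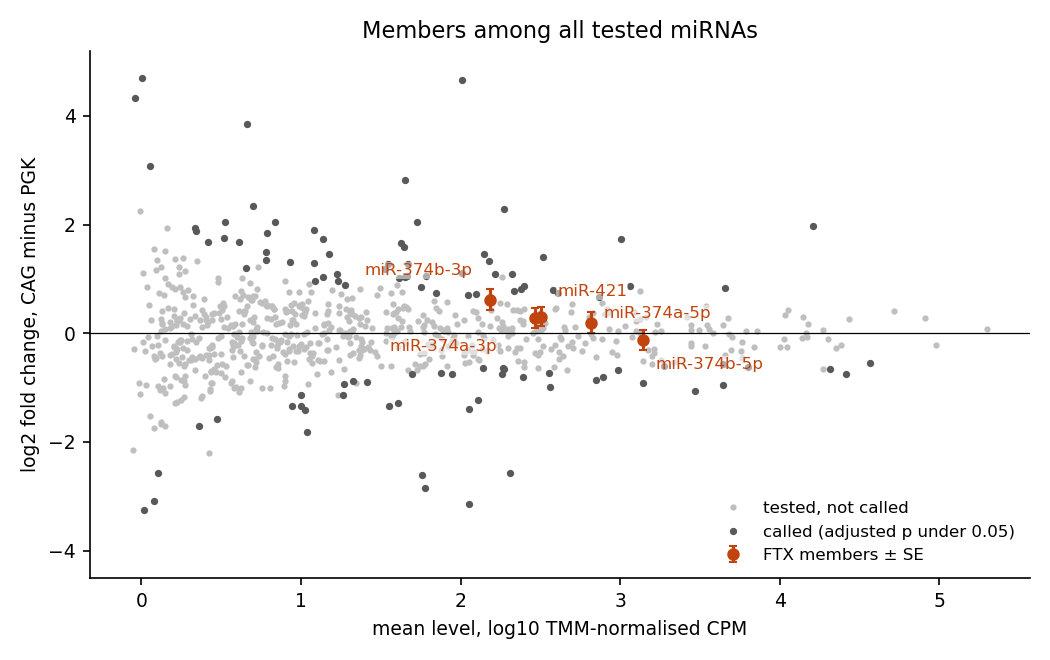
Log2 fold change, CAG minus PGK, of the 773 tested miRNAs against mean level (log10 CPM), with the 5 tested FTX members in orange and bars of 1 SE. Called miRNAs are dark grey, 7 points lie outside the plotted range, and the members lie between −0.12 and 0.62 among uncalled miRNAs of like abundance.

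Arm use was compared within each library, where no scaling factor enters. In miR-374b the 3p arm was the minor one in every library and took a larger share in CAG cells. It made up 12.5% (95% exact interval 12.03 to 12.99) and 11.8% (10.9 to 12.7) of both arms' reads in CAG replicates 1 and 2. In PGK replicates 1 and 2 it made up 7.86% (7.37 to 8.37) and 7.44% (6.98 to 7.91). The libraries of a group had overlapping intervals, and those of different groups did not overlap. These intervals cover counting error only, not the spread between libraries, so the gap is no test of CAG against PGK. Of all hairpins, 19.7% had a 5p to 3p ratio lower in both CAG libraries than in both PGK libraries.

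The log2 ratio of 5p to 3p reads of miR-374b was thus 2.81 and 2.91 in CAG replicates 1 and 2, against 3.55 and 3.64 in PGK replicates 1 and 2. The difference was −0.74 (95% interval −1.27 to −0.21), a ratio of 0.5998 in CAG relative to PGK cells. Tested by limma over the 178 hairpins with both arms measured, it had rank 3 by p but did not pass adjustment (unadjusted p = 0.00648, limma adjusted p = 0.3504). That test called 0.562% of hairpins, 1 in number, and 8.43% had an unadjusted p under 0.05. By size alone the difference of miR-374b was not exceptional: 28 hairpins, itself included, differed by at least as much. The SE of this fit depends in part on how many reads the rarer arm has, and that of miR-374a was 0.26. For miR-374b it was 0.27, and each of the other hairpins among those 28 had a larger one. These SEs ran from 0.36 for miR-196a upward, with 1.00 for miR-767, which had the largest difference. It stayed between −0.79 and −0.69 in all 8 alternative fits and was called in none of them, with limma adjusted p-values from 0.076 with precision weights to 0.989 without PGK replicate 2.

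In miR-374a the 3p arm was a larger share and differed between replicates rather than groups. It made up 33.9% (95% exact interval 33.1 to 34.7) and 28.5% (27.0 to 30.2) of both arms' reads in CAG replicates 1 and 2, and 32.6% (31.5 to 33.8) and 28.0% (26.9 to 29.04) in PGK replicates 1 and 2. Replicate 1 of each group was the higher one. The log2 difference in 5p over 3p, CAG minus PGK, was −0.06 (95% interval −0.57 to 0.45; limma adjusted p = 0.984). Whether the miR-374a and miR-374b hairpins differ in their response was not tested, and their intervals overlap. For miR-545 both arms were too rare for a ratio.

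**Figure D4:**
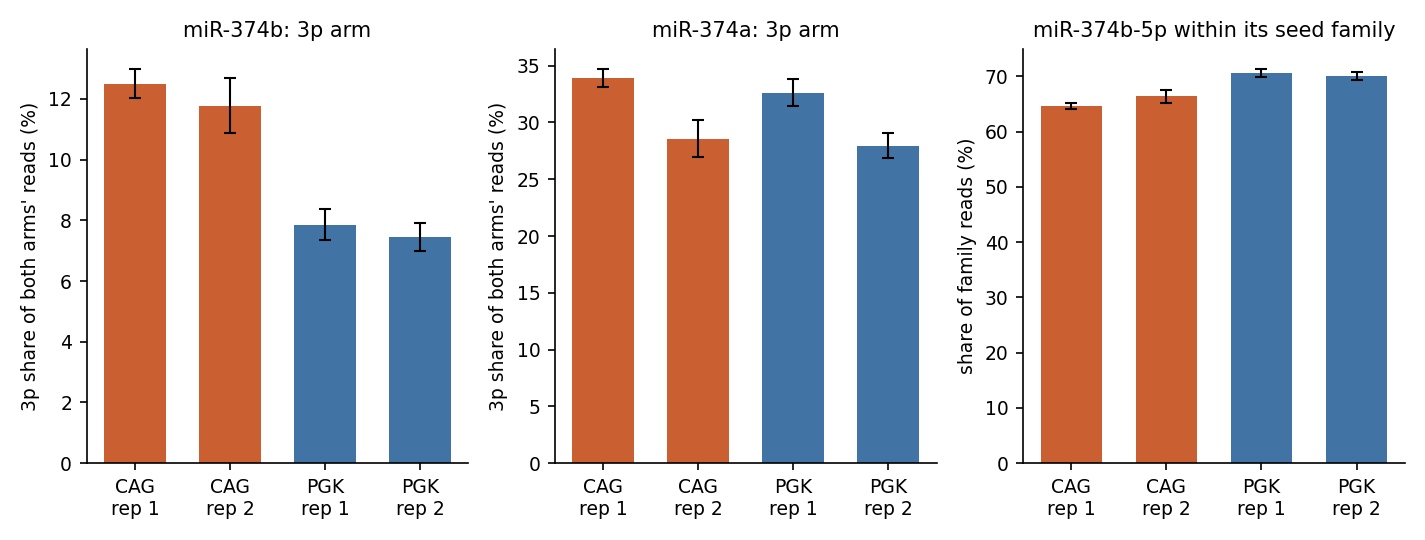
Share of the 3p arm in the reads of miR-374b and of miR-374a, and share of miR-374b-5p in the summed reads of miR-374a-5p and miR-374b-5p, per library (percent; bars in orange for CAG and blue for PGK, with 95% exact intervals). Groups separate for miR-374b in the first and last panel, while the miR-374a share differs between replicates. The intervals cover counting error only.

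The 2 sources of the UAUAAUA seed were also present in unequal proportions. miR-374b-5p supplied 64.7% (95% exact interval 64.1 to 65.3) and 66.4% (65.3 to 67.6) of their summed reads in CAG replicates 1 and 2, against 70.6% (69.9 to 71.4) and 70.1% (69.4 to 70.8) in PGK replicates 1 and 2. Both CAG libraries were below both PGK libraries. The log2 ratio of miR-374b-5p to miR-374a-5p differed by −0.32, and the exact permutation test (two-sided) gave p = 0.333, the smallest value this test allows for 2 against 2 libraries. How reads were split between these near-identical entries enters this share and was not tested.

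Ratios between the hairpins were compared in the same way. Reads of miR-374b and miR-421 together were 1.73 and 1.94 times those of miR-374a and miR-545 in CAG replicates 1 and 2, and 2.10 and 2.13 times in PGK replicates 1 and 2. The log2 difference was −0.21, with a pooled SD of 0.085 between replicates. Within the second pair, miR-421 reached 0.250 and 0.213 times the miR-374b reads in CAG replicates 1 and 2, and 0.195 and 0.168 times in PGK replicates 1 and 2, a log2 difference of 0.35 with a pooled SD of 0.160. Both differences gave an exact permutation p = 0.333 (two-sided), again the smallest that this test can give for 2 against 2 libraries. The first difference was −0.12 without CAG replicate 1 and −0.29 without CAG replicate 2. These ratios share reads with one another and with the arm shares.

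**Figure D5:**
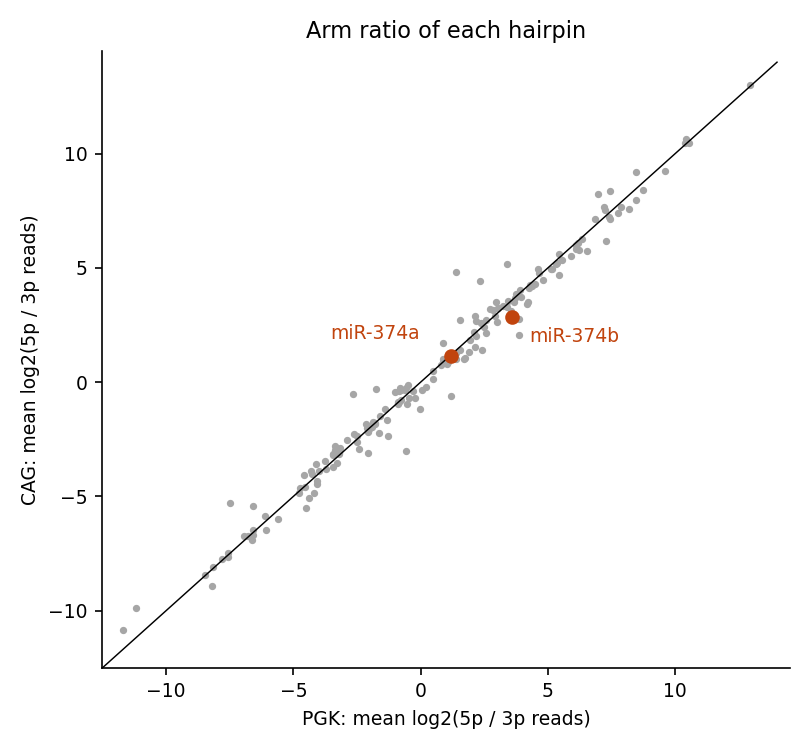
Mean log2 ratio of 5p to 3p reads in CAG (vertical axis) against PGK libraries (horizontal axis) for the 178 hairpins with both arms tested, with the line of equality. The point of miR-374a lies near the line and that of miR-374b 0.74 below it, among others at a like distance. The SE, which differs between hairpins, is not drawn.

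The miR-374c products, which would come from the strand opposite to MIR374B, had few reads. miR-374c-5p had 12 and 3 reads in CAG replicates 1 and 2 and 8 and 7 reads in PGK replicates 1 and 2, a pooled ratio of 0.950 (95% exact interval 0.433 to 2.09). miR-374c-3p had 18 and 4 reads in CAG and 9 and 4 reads in PGK libraries, a ratio of 1.61 (0.775 to 3.47). Neither passed the low-count filter, and no read of miR-655-3p, listed as a relative, was counted.

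Of the 57 tested miRNAs whose hairpins all lie on chromosome X outside FTX, 7 were higher and 5 lower in CAG cells, and 45 were not called. The share called was 21.1%, beside 14.2% of all tested miRNAs. Their median log2 fold change was −0.08. miR-105-5p, from an intron of GABRA3, stood at 720 and 583 CPM in CAG libraries and 0.626 and 0.418 CPM in PGK libraries. miR-767-5p from the same locus stood at 287 and 253 CPM in CAG libraries and 0.375 and 0 CPM in PGK libraries. miR-651-5p rose 25.4-fold and miR-504-5p rose 2.14-fold, with means of 225 CPM for CAG and 104.8 CPM for PGK (n = 2 each). miR-224-5p fell by 3.14, miR-503-5p by 0.85 and miR-221-3p by 0.74 on the log2 scale. The calls of miR-504-5p, miR-503-5p and miR-221-3p were lost without PGK replicate 1 and without PGK replicate 2. That of miR-221-3p was also lost with the replicate block, and that of miR-503-5p with library size scaling and with a filter of 10 CPM in 2 libraries.

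Among 25 tested miRNAs from other long noncoding host genes, 5 were higher, 1 lower and 19 not called, with a median log2 fold change of 0.09. That is 24% called, beside 14.2% of all tested miRNAs. miR-99a-5p rose 1.78-fold and miR-181a-3p rose 1.76-fold, and miR-503-5p, also X-linked, was the lower one. The calls of miR-99a-5p and miR-181a-3p, too, were lost without PGK replicate 1 and without PGK replicate 2.

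The miRNAs whose profile over the 4 libraries was most like that of the tested members were miR-186-5p, miR-450a-5p, let-7f-5p, miR-550a-5p and miR-3615. Likeness was the root mean square distance between centred log2 CPM values, taken over the 217 tested miRNAs outside the members that averaged 100 CPM or more. The distances were 0.049 to 0.061, and the median over the 217 was 0.294. The 5 were picked for the smallest distances, so they lie below that median by choice. miR-186-5p stood at 2911 and 2882 CPM in CAG replicates 1 and 2, against 2293 and 2421 CPM in PGK replicates 1 and 2. None of the 5 was called (edgeR adjusted p from 0.221 to 0.351). Within the members, whose own values enter the common profile, miR-421 was closest to it at 0.051. The 2 arms of miR-374b were farthest, miR-374b-3p at 0.185 and miR-374b-5p at 0.201. With 4 libraries many miRNAs have like profiles, and this is a description only.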

How the data were processed

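Small RNA was measured in 4 HEK293T libraries, 2 CAG and 2 PGK, grouped by sample title. Per the labels' protocols, RNA was isolated with Trizol and the NEBNext Small RNA kit was used for the libraries. The authors deposited whole-number counts for 2656 mature miRNAs and, in a second table, for seed families (aligner, counting rule and build: not given in the sources used here).

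The fit used edgeR 4.0.16 (quasi-likelihood, robust, TMM; filter by group with a minimum count of 10 and a minimum total of 15) in R 4.3.3, over all 773 miRNAs passing the filter, with Benjamini-Hochberg adjustment over all of them and a threshold of 0.05. Fold changes are CAG over PGK. The standard error is the log2 fold change divided by the root of F. Arm ratios, log2 of (5p + 0.5) over (3p + 0.5) counts, were tested with limma 3.58.1 (trend, robust) over 178 hairpins. Both procedures were run on simulated counts with the same relative spread for every miRNA. Such a run does not measure their error rates on these data. Permutation tests and intervals used scipy 1.17.1. DESeq2 1.42.0 and limma-voom were alternatives. Replicates differed by far more than counting noise (chi-square of 125 per degree of freedom for the CAG pair and 66.1 for the PGK pair), so each library was kept as 1 replicate.

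The members and lists were chosen with earlier results of these data known. Named besides the members are called list members with a mean of at least 100 CPM, up to 4 per list and direction, and the 5 miRNAs of nearest profile.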

Additional observations from a re-analysis of the deposited data

How the results depend on the processing

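No member was called lower in CAG cells in any alternative fit, and miR-374b-3p was the only one called higher, by limma-voom (log2 fold change 0.62), without CAG replicate 1 (0.66) and without CAG replicate 2 (0.59), which makes 1 called member in each of these 3 and 0 in the others. Leaving out 1 library at a time, the log2 fold change ran from 0.49 to 0.73 for miR-374b-3p, 0.24 to 0.35 for miR-421, 0.01 to 0.37 for miR-374a-5p, 0.13 to 0.42 for miR-374a-3p and −0.29 to 0.040 for miR-374b-5p, the last above 0 without PGK replicate 2. Family UAUAAUA ran from −0.24 to 0.089 in the same way, above 0 without PGK replicate 2, and stood at 0.012 with library size scaling and 0.0031 with a filter of 10 CPM in 2 libraries. The arm ratio of miR-374a ran from −0.24 to 0.12 and that of miR-374b from −0.79 to −0.69. Removing a trend on G and C content moved miR-374a-3p to 0.19, miR-374b-5p to −0.16, miR-374b-3p to 0.58 and miR-421 to 0.31, and to 0.18, −0.15, 0.58 and 0.31 together with the replicate block; miR-374a-5p has no value here. The cause of these shifts was not tested.

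Calls over all miRNAs, 63 higher and 47 lower, fell to 39 higher with the filter of 10 CPM in 2 libraries and ran from 10 to 85 higher and 6 to 78 lower with 1 library left out. Family calls, 37 higher and 30 lower, were 56 higher with library size scaling and ran from 8 to 37 higher and 6 to 23 lower with 1 library left out. Arm ratios, 0 higher and 1 lower, were 2 higher and 0 lower with a pseudocount of 5, 0 lower with precision weights, and 0 to 2 higher and 0 to 2 lower with 1 library left out. With the replicate block 40 miRNAs were higher and 23 lower, and 14 families higher and 7 lower; no member changed its call. The labels do not say whether replicates of equal number belong together. Replicate differences of the groups had a correlation of −0.015 across tested miRNAs, and a shared batch was not tested. With 1 library left out, the log2 difference of miR-374b plus miR-421 over miR-374a plus miR-545 ran from −0.29 to −0.12, that of miR-421 over miR-374b from 0.23 to 0.46 and that of miR-545 over miR-374a from 0.39 to 1.49. The guide-arm version of the miR-545 ratio could not be computed, as 2 libraries had no miR-545-3p read. Depth limits miR-545 and miR-374c, whose counts in CAG replicate 2 are at or near the 3 reads that a count of 0 allows.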
